A study of Canis lupus familiaris with 34 samples.

Results

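The members are 10 genes of extracellular matrix turnover, read across canine tumors: the metalloproteinases MMP1, MMP2, MMP3, MMP9, MMP13 and MMP14 and the inhibitors TIMP1, TIMP2, TIMP3 and RECK. They were chosen by gene symbol, and every probe set annotated with exactly 1 symbol equal to a member was read. This gave 19 probe sets for 10 genes (6 metalloproteinases and 4 inhibitors), of 15115 genes and 42860 probe sets on the array less its controls. A gene with more than 1 probe set is given by its brightest, taken as the mean of all 34 arrays, and the others are named where they are used.

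The 34 Affymetrix Canine_2 arrays each held RNA from 1 sample. Cultured cells made up 18 arrays, namely 10 hemangiosarcoma (HSA) lines, 5 osteosarcoma (OSA) lines and 3 splenic hematoma cultures. Primary cells made up the other 16, with 1 acute lymphoblastic leukemia (ALL), 2 chronic lymphocytic leukemias (CLL), 6 diffuse large B-cell lymphomas (DLBCL), 1 marginal zone lymphoma (MZL) and 6 T-zone lymphomas (TZL). Hemangiosarcoma is a malignant tumor of blood vessel-forming cells, here labelled as arising in the spleen, and splenic hematoma is a benign lesion of the same organ. No agent, transgene or deletion was part of any group. Golden retrievers gave 6 of the HSA lines (Tucker, Journey, Frog and the ChadG lines 4, 6 and 8), and the remaining ones were from a Rottweiler (Joey), a Golden Retriever x Great Pyrenees cross (DD1), a Portuguese Water Dog (ChadP9) and a Dalmatian (Dal4). The hematoma cultures were from a golden retriever (Pippin), a Standard Poodle (Baxter) and a Keeshond (Kylie). The OSA lines, the lymphomas and the CLLs were from golden retrievers, and the ALL was from a golden retriever mix.

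The HSA and hematoma cultures were grown under conditions that favor endothelial cells and tumor cells were taken at the earliest passages at hand, so each line stands for the cells that grew out and not for the whole tumor. Of 12 endothelial markers, 0 to 5 lay above the array median on each HSA array and 2 to 5 on each hematoma array. PECAM1, CDH5, TEK, EMCN and ESAM did so on no array of either group and VWF and TIE1 on some HSA arrays and no hematoma array, while KDR, FLT1, CLDN5, ENG and ERG did so on at least 1 array of each group. In contrast, 9 to 11 of 12 fibroblast and mural cell markers lay above it on each cultured array. Of 6 osteoblast markers with a probe set, 0 to 3 lay above it on each OSA array, and RUNX2, IBSP and DMP1 did so on none, while BGLAP, ALPL and PHEX did so on at least 1. The highest correlation between any 2 arrays was 0.985. The labels give each array an ID of its own, so the spread reported is read as that between dogs, although 2 of the HSA dogs (Frog and Journey) were distantly related, and the number of arrays limits the precision of each value.

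Matrix metalloproteinases are zinc-dependent enzymes that are made as inactive precursors and cut collagens and other matrix proteins once their propeptide is removed. MMP1 and MMP13 are collagenases that cleave fibrillar collagen, MMP3 is a stromelysin that cuts many matrix proteins and activates other precursors, and MMP2 and MMP9 are gelatinases that degrade denatured collagen and basement membrane collagen. MMP14 is anchored in the cell membrane and activates the MMP2 precursor together with TIMP2. The TIMPs bind the active site of the enzymes, TIMP3 while held in the matrix, and RECK is a membrane-anchored inhibitor of several of them. These genes are known for their part in invasion and in the growth of new vessels.

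Levels are log2 intensities from robust multi-array averaging (RMA), and a difference of 1 stands for a 2-fold change. To be tested in a comparison, a probe set had to exceed its array's median on a minimum number of arrays, which was the size of the smaller group. A level under the array median was read as low and not as absent. Levels are compared between arrays for one probe set at a time, and not between genes.

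**Figure D1:**
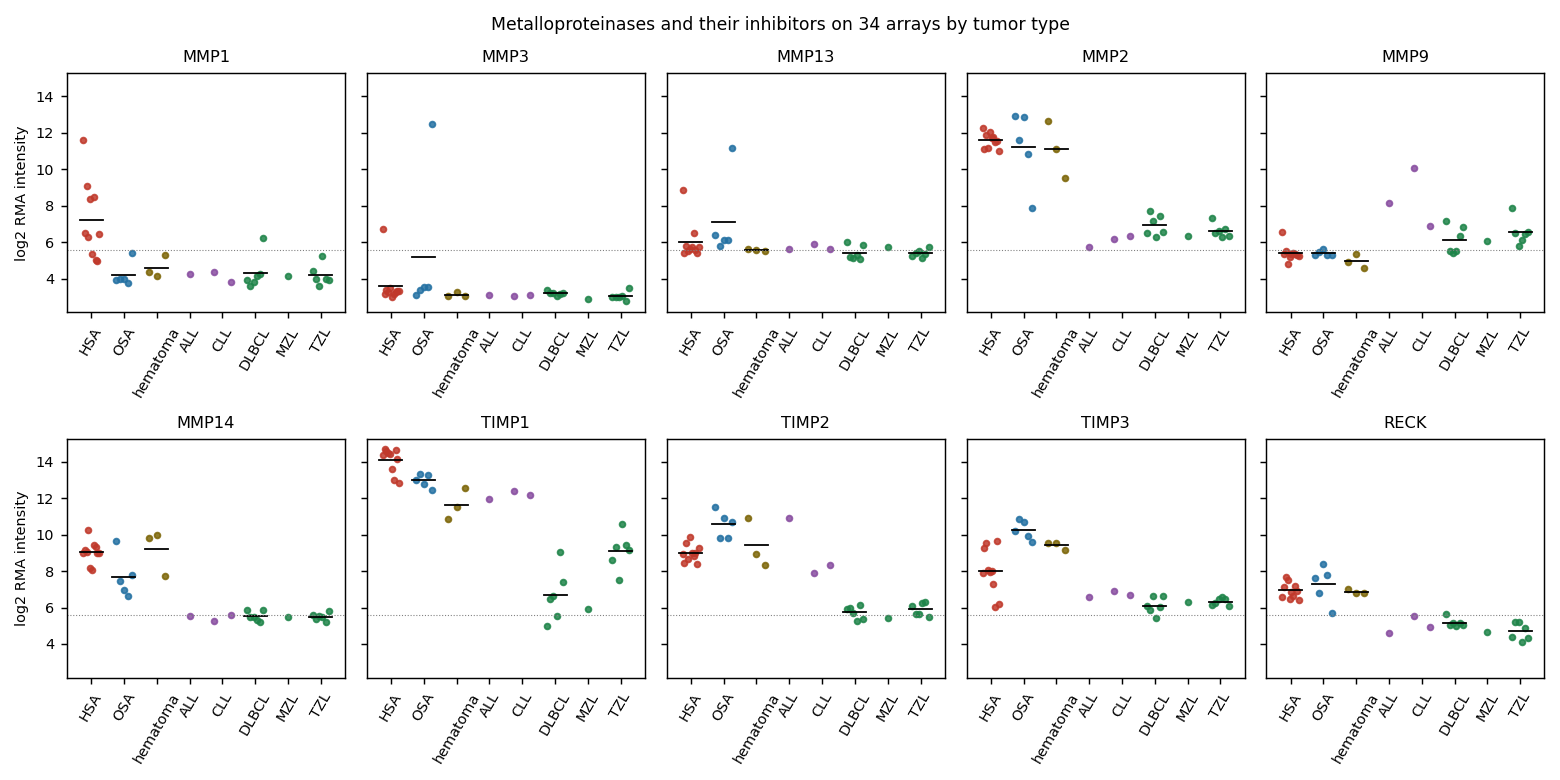
Log2 RMA intensity (y axis) of the main probe set of each member on every array, by tumor type (x axis), with 1 point per array, a black line at the mean of each group of more than 2 arrays, and a dotted line at the lowest array median. MMP2, MMP14 and RECK were higher on every cultured array than on every primary array, MMP3 reached 12.48 in one OSA line, and MMP9 was highest in the CLL Maddle at 10.07.

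Cultured HSA, OSA and hematoma cells had higher MMP2, MMP14, TIMP1, TIMP2, TIMP3 and RECK than primary lymphoid tumors. Of the 7 members tested these 6 passed, all in that direction, at an adjusted p of 0.001 (limma, Benjamini-Hochberg over all probe sets tested). The background was high, since 43.4% of all 22063 probe sets tested passed, made up of 22.0% that were higher in cultured cells and 21.4% that were lower. Lineage and culture cannot be told apart here, since every sarcoma or hematoma sample was cultured and every lymphoid one was not. The hybridization control averaged 9.53 ± 0.46 in cultured cells and 10.33 ± 0.37 in primary tumors, with overlap, and its part was not tested. In the bulk primary samples, fewer cells of a type and less RNA per cell cannot be told apart.

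MMP2 ranged from 7.87 to 12.93 in cultured cells, with a median of 11.60, against 5.71 to 7.73 with a median of 6.50 in primary tumors. The groups did not overlap, and the lowest cultured value was that of OSCA71. The mean difference was 4.79 (SE 0.31, adjusted p 1.28e-15 in limma), a 27.7-fold change. The same held for MMP14, with 6.64 to 10.26 (median 8.99) in cultured cells against 5.20 to 5.89 (median 5.50) in primary tumors, a difference of 3.18 (SE 0.26). RECK did not overlap either, at 5.72 to 8.39 (mean 7.02) in cultured cells against 4.13 to 5.63 (mean 4.93) in primary tumors, a difference of 2.09 (SE 0.18). RECK lay above the array median on all 18 cultured arrays and on 0 of the 16 primary ones, so it met the filter only through the group where it is high, and MMP14 did so on 18 cultured and 3 primary arrays. Over all probe sets tested, 4.54% were higher in cultured cells with groups that did not overlap.

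The TIMPs were higher in cultured cells but overlapped with some primary samples. TIMP1 averaged 13.37 ± 1.11 in cultured cells (SD, n = 18) and 8.56 ± 2.37 in primary tumors (SD, n = 16), a difference of 4.80 (SE 0.60). TIMP2 averaged 9.50 ± 0.98 in cultured cells and 6.40 ± 1.47 in primary tumors, a difference of 3.09 (SE 0.41). TIMP3 averaged 8.86 ± 1.41 in cultured cells and 6.31 ± 0.38 in primary tumors, a difference of 2.55 (SE 0.35). The overlap in TIMP1 came from the 3 leukemias, that in TIMP2 from Rascal and Forrest among them, and that in TIMP3 from the HSA lines DD1 and Dal4, at 6.02 and 6.21. MMP13 missed the threshold, at 6.25 ± 1.46 in cultured cells and 5.49 ± 0.30 in primary tumors (adjusted p 0.0612 in limma). MMP1, MMP3 and MMP9 were above the array median on too few arrays to be tested, and MMP9 ran the other way, at 5.33 ± 0.39 in cultured cells and 6.70 ± 1.20 in primary tumors. The other MMP9 probe sets lay above the array median on no array and differed by -0.16 and -0.15.

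Genes that act with the members moved in the same comparison. Of the 10 genes for activation, binding and clearance that were tested, 9 were higher in cultured cells and none was lower, with a median difference of 3.21, against -0.06 over all probe sets tested. Of all probe sets tested, 22.0% passed as higher in cultured cells and 21.4% as lower. The 4 with the largest differences were THBS2, a matrix glycoprotein that binds MMP2 for uptake (6.99, SE 0.65), the protease inhibitors TFPI2 (6.85, SE 0.61) and SERPINE2 (5.09, SE 0.51), and the urokinase gene PLAU (3.68, SE 0.32). Of 11 substrate genes, 10 were higher, led by the collagen genes COL1A2 (8.07, SE 0.50) and COL1A1 (7.87, SE 0.39), the proteoglycan gene DCN (7.53, SE 0.43) and the matrix glycoprotein gene SPARC (6.86, SE 0.43). Inducers and transcription factors were mixed, with 4 of 11 higher and 5 lower. FOS, a subunit of the AP-1 factor that binds the promoters of several metalloproteinases, was 3.92 lower on the log2 scale in cultured cells (difference -3.92, SE 0.41). TNF was lower too (-2.35, SE 0.32), at a mean of 5.38 in cultured cells, under the lowest array median of 5.57. The growth factor receptor gene EGFR (3.42, SE 0.49) and the oncostatin M receptor gene OSMR (3.41, SE 0.32) were higher. Of the other family members, MMP19 (1.60, SE 0.27) and MMP28 were higher among 4 tested, MMP28 at 6.37 ± 0.78 in cultured cells and 5.38 ± 0.28 in primary tumors. In primary tumors THBS2 (4.76), TFPI2 (4.68), OSMR (4.89), EGFR (4.78) and COL1A1 (5.55) averaged under the lowest array median, 5.57. Such genes can meet the filter mainly through cultured cells, where they are high, so these counts have to be read with that choice.

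Between HSA lines and hematoma cultures, TIMP1 was the one member that passed. HSA lines had TIMP1 levels of 12.84 at the lowest, 14.39 at the median and 14.68 at the highest, against 10.87 in Pippin, 11.51 in Baxter and 12.54 in Kylie among the hematoma cultures. All 10 HSA lines lay above all 3 hematoma cultures, with Dal4 and Joey nearest to them. Means were 14.08 ± 0.69 in HSA lines (SD, n = 10) and 11.64 ± 0.84 in hematoma cultures (SD, n = 3), a difference of 2.44 (SE 0.44) or 5.42-fold, with an adjusted p of 0.0497 in limma against a threshold of 0.1. An exact two-sided permutation test gave an unadjusted p = 0.0035, the smallest value that 10 against 3 arrays allow, so it largely restates the lack of overlap.

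That was 1 of 8 members tested, against a background of 0.266% of 23292 probe sets that passed, or 0.133% that passed as higher. Of all probe sets tested, 0.987% were higher in HSA lines with groups that did not overlap. The call was lost without the hematoma culture Pippin (difference 2.05, adjusted p 0.119 in limma) and without Baxter (2.37, adjusted p 0.275 in limma). It held without Kylie, whose TIMP1 was nearest to that of the HSA lines, with a difference of 2.89.

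The other inhibitors did not pass. TIMP3 was 6.02 to 9.64 in HSA lines, with a median of 7.99, against 9.56 in Pippin, 9.54 in Baxter and 9.17 in Kylie. Of the 10 HSA lines, 7 lay below all 3 hematoma cultures, and 1 line, ChadP9, lay above them. The difference was -1.43 (SE 0.69, adjusted p 0.529 in limma), and the other 3 TIMP3 probe sets gave -0.74, -1.35 and -1.27. TIMP2 differed by -0.42 (95% interval -1.36 to 0.52) and RECK by 0.07 (95% interval -0.48 to 0.62).

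Among the metalloproteinases, MMP1 had the largest difference between HSA lines and hematoma cultures and did not pass. It was 4.96 at the lowest, 6.45 at the median and 11.63 at the highest in HSA lines, against 4.34 in Pippin, 4.13 in Baxter and 5.30 in Kylie. Of the 10 HSA lines, 8 lay above all 3 hematoma cultures, and MMP1 exceeded the array median in 7 HSA lines and in no hematoma culture. The difference was 2.62 (SE 1.16), with an adjusted p of 0.503 in limma and p = 0.0629 in an exact two-sided permutation test. MMP2 differed by 0.51 (95% interval -0.47 to 1.50), MMP14 by -0.15 (95% interval -1.15 to 0.85) and MMP13 by 0.43 (95% interval -0.79 to 1.65), or 0.11 without ChadG4.

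MMP2 and MMP14 were thus high in both. In hematoma cultures MMP2 spread from 9.54 in Kylie to 12.63 in Pippin and MMP14 from 7.75 in Kylie to 9.97 in Baxter, while the 10 HSA lines kept within 11.03 to 12.29 for MMP2 and 8.05 to 10.26 for MMP14. The direction of these small differences depended on single cultures. Without Kylie, MMP2 differed by -0.27 and MMP14 by -0.87, and without Baxter MMP14 differed by 0.24. TIMP2 differed by 0.35 without Pippin.

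**Figure D2:**
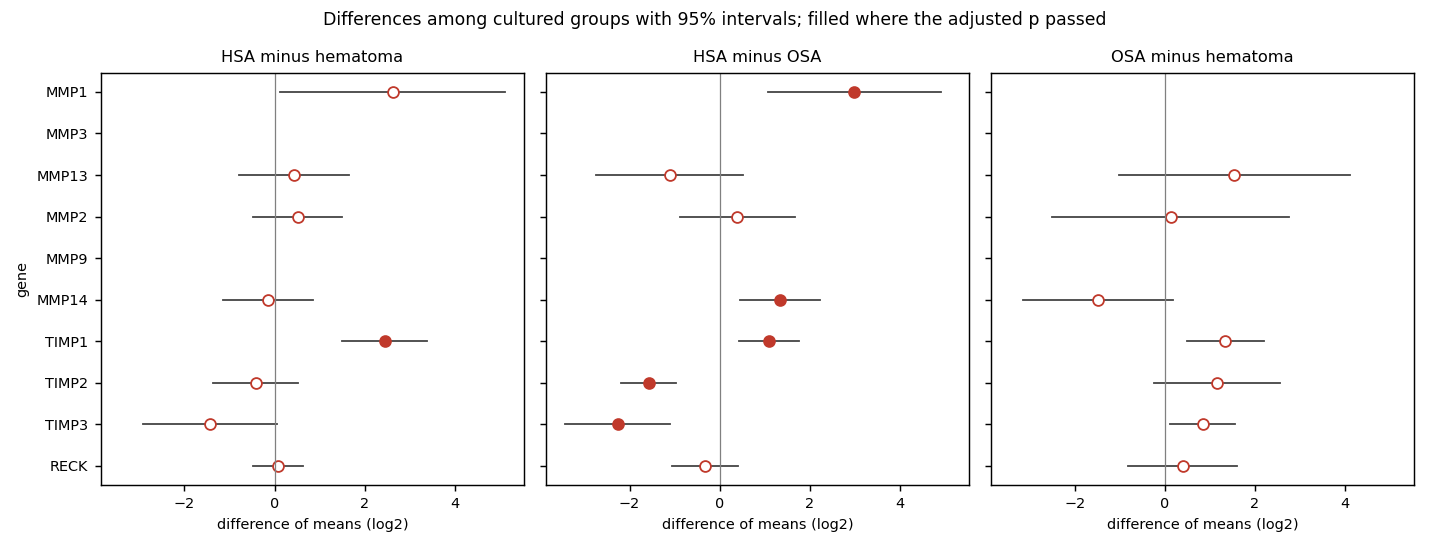
Difference of group means on the log2 scale (x axis) for each member tested (y axis) in HSA minus hematoma, HSA minus OSA and OSA minus hematoma, with bars for the 95% interval and filled points where the adjusted p passed. TIMP1 passed in HSA minus hematoma at 2.44, and 5 members passed in HSA minus OSA, from -2.26 for TIMP3 to 2.99 for MMP1. The comparisons share arrays.

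Of the lists of partner genes, 1 gene passed between HSA lines and hematoma cultures, namely OSMR among 10 inducers and transcription factors tested. Over all 23292 probe sets tested, 0.266% passed. OSMR averaged 9.19 ± 0.53 in HSA lines and 6.88 ± 0.63 in hematoma cultures, a difference of 2.30 (SE 0.34, adjusted p 0.0177 in limma). No gene passed among 5 other family members, 12 genes for activation, binding and clearance, and 11 substrates, whose median differences were 0.38, 0.03 and -0.07, against 0.02 over all probe sets tested.

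Hemangiosarcoma and osteosarcoma lines differed in more members, in both directions. HSA lines had higher MMP1, MMP14 and TIMP1 and lower TIMP2 and TIMP3 than OSA lines. These were 5 of 8 members tested at an adjusted p of 0.05, where 27.8% of 22857 probe sets passed, 16.1% as higher and 11.7% as lower in HSA lines. The hybridization control signal averaged 9.26 ± 0.16 in HSA lines and 10.12 ± 0.34 in OSA lines, with no overlap. The actin control, as the 3′ minus the 5′ signal of one probe set pair, averaged 1.75 ± 0.38 in HSA lines and 2.64 ± 0.68 in OSA lines, and over all actin control sets 0.65 ± 0.41 in HSA lines and 1.14 ± 0.53 in OSA lines. The part of either in the differences was not tested.

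TIMP3 had the largest fall in HSA lines against OSA lines. Its levels were 6.02 at the lowest, 7.99 at the median and 9.64 at the highest in HSA lines, against 10.21 in OSCA20, 10.87 in OSCA23, 10.71 in OSCA59, 9.91 in OSCA75 and 9.58 in OSCA71. Of the 10 HSA lines, 9 lay below every OSA line, the exception being ChadP9. The difference was -2.26 (SE 0.55, adjusted p 0.00704 in limma), a level 4.81-fold lower in HSA lines, and an exact two-sided permutation test gave p = 0.00333. The other 3 TIMP3 probe sets differed by -1.47, -1.91 and -2.12 and passed as well, and in one of them, at 5.71 to 7.28 in HSA lines against 7.62 to 8.42 in OSA lines, the groups did not overlap, which was so for 2.62% of all probe sets tested, counted in the same direction.

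**Figure D3:**
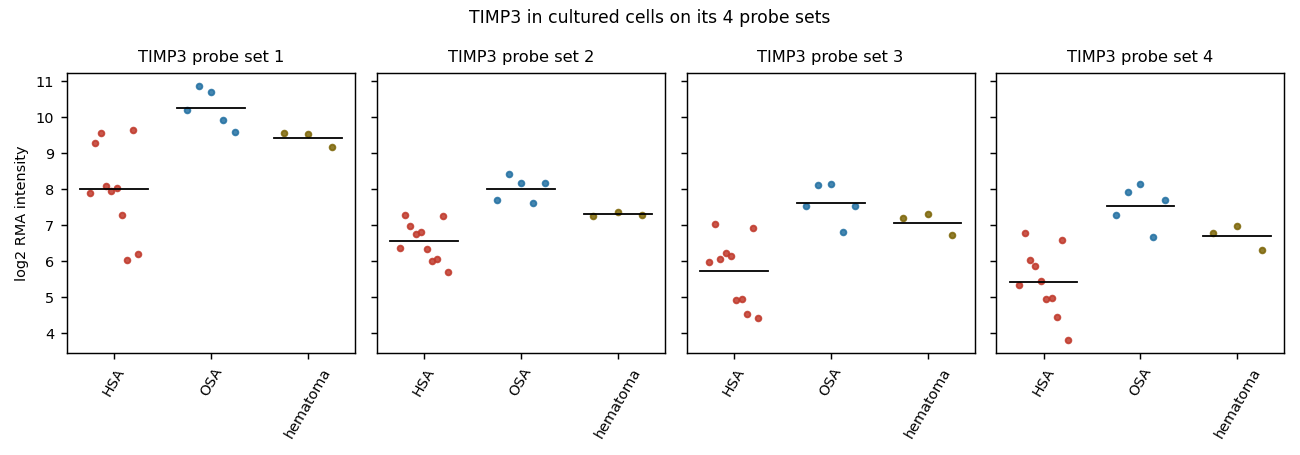
Log2 RMA intensity (y axis) of TIMP3 on its 4 probe sets in HSA lines, OSA lines and hematoma cultures (x axis), with 1 point per array and a line at the mean. HSA lines averaged below OSA lines and below hematoma cultures on each probe set, with differences from OSA lines of -2.26, -1.47, -1.91 and -2.12 in the order shown.

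TIMP2 was lower in HSA lines, at 8.40 to 9.89 with a median of 8.94, against 11.53 in OSCA20, 9.81 in OSCA23, 10.94 in OSCA59, 9.84 in OSCA75 and 10.72 in OSCA71. Only Journey, at 9.89, reached the range of the OSA lines. The difference was -1.58 (SE 0.29, adjusted p 0.00132 in limma), a level 2.99-fold lower in HSA lines.

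TIMP1 went the other way, at 12.84 to 14.68 with a median of 14.39 in HSA lines, against 13.02 in OSCA20, 13.34 in OSCA23, 12.80 in OSCA59, 13.27 in OSCA75 and 12.47 in OSCA71. Of the 10 HSA lines, 8 lay above every OSA line, and Joey and Dal4 lay among them. The difference was 1.10 (SE 0.31, adjusted p 0.0171 in limma). When OSCA71 and ChadG4, whose collagenase and stromelysin levels stood apart, were both left out, a choice made after the values were seen, TIMP1 no longer passed (0.94, adjusted p 0.0631 in limma). It also lost its call in one fit over all 34 arrays (adjusted p 0.0906 in limma).

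MMP1 was 4.96 to 11.63 with a median of 6.45 in HSA lines, against 3.93 in OSCA20, 3.99 in OSCA23, 3.99 in OSCA59, 3.77 in OSCA75 and 5.40 in OSCA71. No OSA line reached its array median, and 7 of the 10 HSA lines lay above all of them. The difference was 2.99 (SE 0.91, adjusted p 0.023 in limma). MMP1 met the filter only through the HSA lines, where it is high, so the call has to be read with that choice. It missed the threshold without OSCA59 (adjusted p 0.0528 in limma) or OSCA75 (adjusted p 0.0546 in limma).

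MMP14 was 8.05 to 10.26 with a median of 9.01 in HSA lines, against 9.65 in OSCA20, 7.44 in OSCA23, 6.98 in OSCA59, 6.64 in OSCA75 and 7.78 in OSCA71. All OSA lines but OSCA20 lay below every HSA line, and OSCA20 lay among them. The difference was 1.34 (SE 0.42, adjusted p 0.0271 in limma), and it missed the threshold without OSCA23 (1.27, adjusted p 0.0622), OSCA59 (1.16, adjusted p 0.0822) or OSCA75 (1.07, adjusted p 0.0881), and without both OSCA71 and ChadG4 (1.36, adjusted p 0.0548), all in limma.

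MMP2, MMP13 and RECK did not pass between HSA and OSA lines. MMP2 differed by 0.39 (95% interval -0.89 to 1.66), and by -0.45 without OSCA71, whose level of 7.87 was the lowest of all cultured arrays. MMP13 differed by -1.11 (95% interval -2.74 to 0.51), and by -0.10 without OSCA71. RECK differed by -0.33 (95% interval -1.07 to 0.41), by -0.72 without OSCA71 and by -0.05 without OSCA59.

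Of 12 genes for activation, binding and clearance, 3 were higher in HSA lines than in OSA lines and 1 was lower, a share near the 27.8% of all probe sets that passed. The plasminogen activators among them make plasmin, which activates several metalloproteinase precursors. Urokinase (PLAU) averaged 10.22 ± 0.71 in HSA lines and 7.95 ± 0.61 in OSA lines, a difference of 2.28 (SE 0.35), and tissue plasminogen activator (PLAT) 9.20 ± 0.63 in HSA lines and 7.04 ± 0.96 in OSA lines, a difference of 2.16 (SE 0.38). LCN2, which binds MMP9, averaged 6.29 in HSA lines and 9.47 in OSA lines (difference -3.17, SE 1.04). CD63, a tetraspanin that binds TIMP1, differed by 0.41 (SE 0.09). Of 4 other family members tested, MMP28 was higher (1.39, SE 0.24) and MMP17 lower (-0.44, SE 0.14). Of 10 inducers and transcription factors, OSMR (1.78, SE 0.36) and ETV4 (0.67, SE 0.23) were higher and EGFR was lower (-1.71, SE 0.35), again a share near the background. Of 11 substrates, 3 were higher and 2 lower, among them COL3A1 (1.73, SE 0.47) and VCAN (1.43, SE 0.43) on one side and BGN (-2.42, SE 0.78) and ELN (-0.63, SE 0.11) on the other.

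Between OSA lines and hematoma cultures, 0 of 7 members tested passed at an adjusted p of 0.05 in limma, where 4.75% of 23062 probe sets did. At an unadjusted p under 0.05, TIMP1 and TIMP3 were below that value, as were 26.4% of all probe sets tested. TIMP1 averaged 12.98 ± 0.36 in OSA lines (SD, n = 5) and 11.64 ± 0.84 in hematoma cultures (SD, n = 3), a difference of 1.34 (SE 0.38, adjusted p 0.0728 in limma). TIMP3 averaged 10.26 ± 0.54 in OSA lines and 9.42 ± 0.22 in hematoma cultures, a difference of 0.84 (SE 0.32, adjusted p 0.141 in limma). The groups did not overlap for TIMP3 and for MMP13, both higher in OSA lines, as for 9.70% of all probe sets tested. MMP14 averaged 7.70 ± 1.17 in OSA lines and 9.18 ± 1.25 in hematoma cultures, a difference of -1.49 (SE 0.74, adjusted p 0.235 in limma). No partner gene passed, among 5 other family members, 12 genes for activation, binding and clearance, 11 inducers and transcription factors and 11 substrates.

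The study also set golden retriever hemangiosarcomas against other tumors, to see whether a signature was particular to the disease. Against the 21 other tumors, the 6 golden retriever HSA lines had higher MMP1 and MMP14 at an adjusted p of 0.001, which made 2 of 9 members tested, against 7.87% of 25266 probe sets, or 5.40% as higher. The other tumors were mostly primary lymphoid cells, so cell source enters this comparison too. The hybridization control was 9.18 to 9.54 in golden retriever HSA lines and 9.66 to 11.12 in the other tumors, with no overlap, and its part was not tested.

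MMP1 was 11.63 in ChadG4, 9.06 in ChadG8, 8.36 in Journey, 6.48 in ChadG6, 6.31 in Frog and 5.35 in Tucker, against 3.59 to 6.24 with a median of 3.99 in other tumors. Of the 6 lines, 5 lay above every other tumor, and the highest of the other tumors was the DLBCL Chieftain. The difference was 3.64 (SE 0.53, adjusted p 1.45e-05 in limma). MMP1 lay above the array median on 5 of the 6 lines and on 1 of the 21 other tumors. It thus met the filter almost only through the group where it is high, and the call has to be read with that choice. The second MMP1 probe set fell below the filter. MMP14 averaged 8.94 ± 0.79 in golden retriever HSA lines (SD, n = 6) and 6.03 ± 1.11 in other tumors (SD, n = 21), a difference of 2.91 (SE 0.47, adjusted p 5.42e-05 in limma), with Frog alone above the OSA line OSCA20.

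TIMP1 was higher in all 6 golden retriever HSA lines (13.59 to 14.68) than in all 21 other tumors (4.98 to 13.34), a pattern found for 1.31% of probe sets tested. Its difference of 4.74 (SE 1.12) missed the threshold, with an adjusted p of 0.00204 in limma, and the other tumors spread over an SD of 2.82. MMP2 likewise missed it, at 11.71 ± 0.47 in golden retriever HSA lines and 7.72 ± 2.26 in other tumors, a difference of 3.98 (SE 0.90, adjusted p 0.00142 in limma), and MMP2 passed when any of OSCA20, OSCA23, OSCA59 or OSCA75 was left out. Against the leukemias and lymphomas alone, 7 members passed, with differences of 5.79 for TIMP1, 5.08 for MMP2, 2.67 for TIMP2, 2.15 for TIMP3 and 2.11 for RECK beside MMP1 and MMP14. The background was much higher there, with 6675 of 25266 probe sets passing, and cultured lines were set against primary cells only.

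Partner genes that passed in this comparison were all higher, where 5.40% of all probe sets tested passed as higher and 2.47% as lower. Of 12 genes for activation, binding and clearance, 4 were higher in golden retriever HSA lines, namely TFPI2 (6.23, SE 1.28), PLAU (4.22, SE 0.47), PLAT (3.27, SE 0.53) and CD63 (1.57, SE 0.31). Of 11 inducers and transcription factors, OSMR (3.89, SE 0.51) and the AP-1 subunit gene FOSL1 (1.38, SE 0.26) were higher, and of 5 other family members, MMP19 (1.64, SE 0.34) and MMP28 (1.26, SE 0.15). Of 11 substrates, 3 were higher, VCAN (5.66, SE 1.09), COL3A1 (5.52, SE 0.96) and COL4A1 (4.72, SE 0.95). Counting also the genes that did not pass, median differences were 2.35 for activation, binding and clearance and -0.30 for inducers and transcription factors. They were 0.25 for other family members and 5.39 for substrates, against -0.08 over all probe sets tested. In the other tumors MMP19 (5.18), MMP28 (5.39) and OSMR (5.49) averaged under the lowest array median, 5.57. Such genes can meet the filter mainly through the HSA lines, where they are high, so these counts too have to be read with that choice.

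Among the 10 HSA lines, golden retriever lines averaged 7.87 ± 2.30 for MMP1 (SD, n = 6) and lines of other breeds 6.22 ± 1.64 (SD, n = 4). TIMP3 averaged 8.47 ± 0.74 in golden retriever lines and 7.29 ± 1.67 in other breeds, and TIMP1 14.35 ± 0.39 in golden retriever lines and 13.67 ± 0.90 in other breeds. The groups overlapped for all 3 genes, and no test of breed was run. The golden retriever lines set against the OSA lines alone no longer gave a call for MMP14 (1.24, adjusted p 0.124 in limma).

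The HSA line ChadG4 and the OSA line OSCA71 stood above all other arrays in MMP3 and MMP13. MMP3 was 6.73 in ChadG4 and 12.48 in OSCA71, against 2.75 to 3.56 on the other 32 arrays. MMP13 was 8.85 in ChadG4 and 11.19 in OSCA71, against 5.07 to 6.48 on the other 32 arrays. The second MMP13 probe set gave 6.15 in ChadG4 and 9.18 in OSCA71, against 2.95 to 4.15 on the rest.

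In the dog assembly UU_Cfam_GSD_1.0, MMP13, MMP12, MMP3 and MMP1 lie next to each other, followed after 2 further genes by MMP8, MMP27, MMP20 and MMP7. MMP12 had no probe set of its own here. ChadG4 was also the highest of all arrays for MMP1, at 11.63, while OSCA71 had 5.40. MMP8, MMP27 and MMP20 lay within the range of the other arrays in both lines. MMP7 was 3.40 in ChadG4 and 2.96 in OSCA71, against 3.03 to 3.97 on the other 32 arrays.

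**Figure D4:**
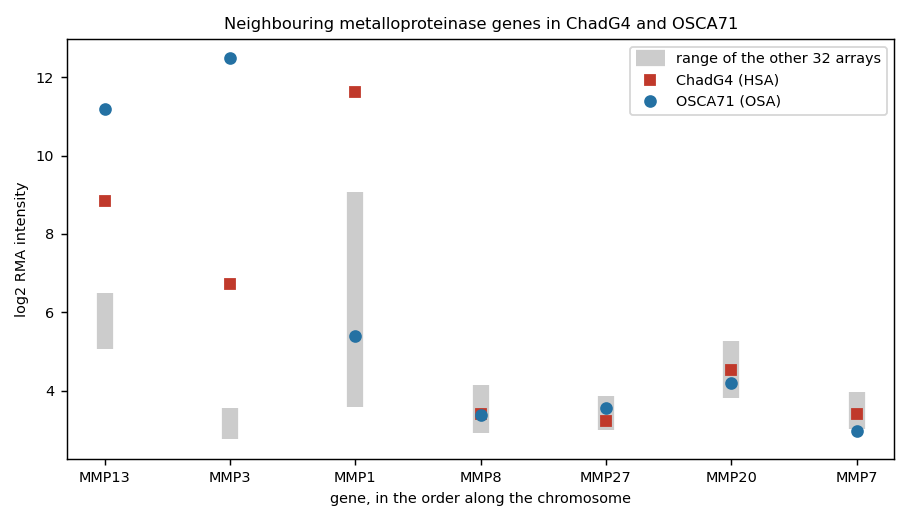
Log2 RMA intensity (y axis) of neighbouring metalloproteinase genes in their order along the chromosome (x axis), with ChadG4 as squares, OSCA71 as circles and grey bars for the range of the other 32 arrays. Both lines stood above that range for MMP13 and MMP3, ChadG4 alone for MMP1, and neither for MMP8, MMP27 or MMP20.

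OSCA71 stood apart from the other OSA lines in more than these genes. It had the lowest MMP2 of the cultured arrays, 7.87 against 10.86 to 12.93 in the other 4 OSA lines, and the lowest RECK, 5.72 against 6.79 to 8.39. Among partner genes chosen after their values were seen, THBS2 was 5.66 in OSCA71 against 11.23 to 13.70 in the other OSA lines, TFPI2 4.26 against 9.57 to 13.28, and COL3A1 9.27 against 12.15 to 13.64. OSCA71 had the lowest mean correlation with its own group, 0.941. In ChadG4, THBS2 was 4.93 against 8.88 to 13.65 in the other HSA lines and BGN 6.22 against 9.38 to 12.43.

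Over the 10 HSA lines, 45 pairs of members were correlated and none passed after Benjamini-Hochberg adjustment, by Pearson's r or Spearman's rho. At an unadjusted p under 0.05, 8 pairs were below it by r and 4 by rho. MMP1 and MMP13 had r = 0.81 (permutation p = 0.00695, adjusted p 0.166) and rho = 0.67 (permutation p = 0.0394, adjusted p 0.503), and without ChadG4 and ChadG8 r was 0.59 (exact permutation p = 0.122). Without ChadG4 alone it was 0.55. MMP13 and MMP9 had r = 0.91 (permutation p = 0.0118, adjusted p 0.166) and rho = 0.67 (permutation p = 0.0392, adjusted p 0.503), without ChadG4 and Joey r was 0.38 (exact permutation p = 0.387), and without ChadG4 alone it was 0.36, so that this r rests on ChadG4.

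Genes most like each member were taken over the 18 cultured arrays, after the mean of each tumor type was removed, as a description only. Means were taken before any line was left out, so an r without 2 lines still carries their part in the means. MMP3 and MMP13 were each other's nearest, at r = 0.96, and at 0.75 without OSCA71 and ChadG4. Over the 10 HSA lines alone their r was 0.94, and -0.24 without ChadG4. TIMP1 was nearest to the endothelial transcription factor gene ERG (0.87), SLC6A6 (0.86) and REM1 (0.85), which stayed at 0.85 each without Dal4 and Joey. TIMP3 was nearest to TNFRSF8 (0.82), MMP14 to ADCY9 (0.90), TIMP2 to SIRPA (0.82), MMP2 to ARMT1 (0.91) and RECK to FUT11 (0.87). MMP9 was nearest to MS4A7 (0.92) and MMP1 to PAK5 (0.81), which was 0.58 without ChadG4 and ChadP9.

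Within the lymphoid tumors, mean TIMP1 was lower in DLBCL than in TZL. TIMP1 was 1 of 5 members tested that passed, a share near the 18.5% of 21763 probe sets that passed (9.32% as lower in DLBCL), so the count itself is no more than the background gives. DLBCL had TIMP1 levels of 4.98, 5.51, 6.46, 6.63, 7.40 and 9.04, in Benson, Kaycee, Cooper, Sally, Chieftain and Snuggles, against 7.49, 8.61, 9.15, 9.34, 9.45 and 10.56 in the TZL samples Rose, Newman, Fire, Niki, Thunder and Shilo. The groups overlapped through Snuggles, which lay above Rose and Newman. Means were 6.67 ± 1.44 in DLBCL and 9.10 ± 1.02 in TZL (SD, n = 6 each), a difference of -2.43 (SE 0.62, adjusted p 0.0148 in limma), a level 5.39-fold lower in DLBCL. An exact two-sided permutation test gave p = 0.00866.

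Summed T-cell markers did not overlap between the lymphoma types, B-cell markers overlapped at the ends of their ranges, and macrophage and neutrophil markers overlapped broadly. The summed intensity of 6 T-cell markers was 5310 to 11000 in DLBCL against 18200 to 31300 in TZL, and that of 5 B-cell markers 4390 to 8890 in DLBCL against 797 to 4620 in TZL. That of 11 macrophage markers was 2740 to 10200 in DLBCL against 1920 to 10400 in TZL, and that of the 7 neutrophil markers with a probe set 343 to 4810 in DLBCL against 1030 to 6400 in TZL. The actin control, by the one pair, was 0.67 to 3.46 in DLBCL. In TZL it was 4.03 in Thunder and 3.30 in Fire, and -0.30 to -0.05 in the other samples. Over all sets it was 0.11 to 1.97 in DLBCL and -0.70 to 1.89 in TZL. The part of the markers and of this control in the TIMP1 difference was not tested. TGFB1, a growth factor that induces TIMP1 expression, was lower in DLBCL by 1.39 (difference -1.39, SE 0.37), and JUNB (-1.67, SE 0.55) was lower too. This made 2 of 9 inducers and transcription factors tested, where 9.32% of all probe sets passed as lower. In cultured cells against primary tumors, where lineage and culture cannot be told apart, TGFB1 was lower (-1.54, SE 0.33) and TIMP1 higher. The part of TGFB1 was not tested. SERPINE2 (-1.87, SE 0.55) was lower among 5 genes for activation, binding and clearance, and none passed among 2 other family members and 6 substrates. MMP2, MMP9, TIMP2 and TIMP3 did not pass.

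The 3 leukemias lay above the 13 lymphomas in TIMP1 and TIMP2, in a comparison chosen after the values were seen and therefore given without a test. TIMP1 was 11.93 in the ALL Rascal and 12.37 and 12.15 in the CLLs Maddle and Forrest, against 4.98 to 10.56 in lymphomas. TIMP2 was 10.90 in Rascal, 7.89 in Maddle and 8.36 in Forrest, against 5.28 to 6.28 in lymphomas. Neither overlapped, and among all 24896 probe sets above the filter 1.46% were higher in the leukemias without overlap. MMP9 was 8.16 in Rascal, 10.07 in Maddle and 6.88 in Forrest, against 5.40 to 7.86 in lymphomas, where Newman was the highest, above Forrest, so the groups overlapped. The other MMP9 probe sets lay above the array median on no array. They averaged 4.70 and 4.17 in the leukemias and 4.58 and 4.10 in the lymphomas, so the MMP9 levels rest on its brightest probe set. The neutrophil markers summed to 4590 to 11900 in the leukemias and 343 to 6400 in the lymphomas. The macrophage markers ran the other way, at 1460 to 3200 in the leukemias and 1920 to 10400 in the lymphomas. The T-cell markers summed to 6570 to 20300 in the leukemias and 2860 to 31300 in the lymphomas. The B-cell markers summed to 411 to 479 in the leukemias and 797 to 8890 in the lymphomas. The actin control differed, at 3.65 ± 0.25 in the leukemias and 1.42 ± 1.47 in the lymphomas by the one pair, and at 2.66 ± 0.67 in the leukemias and 0.52 ± 0.92 in the lymphomas over all sets. The part of the markers and of the actin control was not tested.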

How the data were processed

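RNA from 34 samples was hybridized to Canine_2 arrays, 1 array each. The authors summarised the probes with RMA (affy; versions not given in the sources used here), and the log2 intensities they deposited, from 2.03 to 14.98, entered every step as they stood. The study's text says that 1 sample was run on 2 chips, which could not be told from the labels. Of 43035 probe sets, 175 AFFX and reporter controls were left out, and symbols came from the platform annotation.

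Groups were taken from the labels and compared with limma 3.58.1 in R 4.3.3 over all probe sets tested, with Benjamini-Hochberg adjustment, at thresholds of 0.1 (HSA against hematoma), 0.001 (golden retriever HSA against other tumors, and cultured against primary) and 0.05 (the rest). Single values were also set in exact permutation tests, whose p-values were not adjusted, and correlations in permutation tests with 1e+05 resamples in Python 3.11.15. The steps were tested on simulated data. The members, lists and tests were chosen with earlier results of these data known. All members were described, and from each further list up to 4 genes per comparison that passed with the largest differences, other genes being named as chosen after their values were seen.

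The actin control was computed in 2 ways, from one 3′ and 5′ pair and as the mean over all 3′ sets minus that over all 5′ sets. No definition was fixed beforehand: the pair was computed first, and the mean was added after combinations were tried until one matched a value already known from an earlier analysis of these data, so both are given. In fits that leave arrays out, the filter was first redrawn on the arrays left and was then kept as in the full comparison, so that 1 choice changed at a time, after a count was seen to differ from that of the earlier analysis. Both versions are given among the alternatives.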

Additional observations from a re-analysis of the deposited data

Results flagged for a closer look

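Dixon's test on the highest or lowest array of a group marked 9 of the 40 sets of values examined, where chance marks about 1 in 20. In the OSA lines OSCA71 stood apart at 12.48 for MMP3 and 11.19 for MMP13, and in the HSA lines ChadG4 stood apart at 6.73 for MMP3 and 8.85 for MMP13. ChadG4 was also far from the other HSA lines for MMP9, at 6.54. OSCA71 was far from the other OSA lines for MMP1, at 5.40. Among the lymphomas, MMP1 was 6.24 in the DLBCL Chieftain, MMP9 was 7.86 in the TZL Newman and RECK was 5.63 in the DLBCL Benson.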

How the results depend on the processing

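In one fit over all 34 arrays, 181 probe sets passed for HSA against hematoma and 3389 for OSA against hematoma. Of the latter, 1 was a member, MMP14, at -1.49 with an adjusted p of 0.0388 in limma. TIMP1 lost its call between HSA and OSA (adjusted p 0.0906 in limma). For golden retriever HSA against other tumors, 7210 of 25266 probe sets passed, and 6 members. There the fit also weighted the other tumor types equally, so ALL and MZL, with 1 array each, counted as much as larger groups. The change thus mixes a different contrast with the shared fit. Without probe sets that match several transcripts (_x_at and _s_at), which include the main probe set of every member but MMP13 and TIMP3 and leave fewer to test, 39 passed for HSA against hematoma, 3511 for HSA against OSA, 324 for OSA against hematoma, 1091 for golden retriever HSA, 5850 for cultured against primary and 2345 for DLBCL against TZL. With golden retriever HSA lines alone, 3729 passed against OSA (3619 with the filter redrawn). Against leukemia and lymphoma alone, 6675 passed and 7 members (6397 and 7 with the filter redrawn). Without OSCA71 and ChadG4, chosen after seeing the data, 3 members passed between HSA and OSA with either filter, MMP2 reversed to -0.53, and MMP13 was 0.00 in golden retriever HSA against other tumors. On a second probe set, MMP2 was -0.05 between HSA and OSA and TIMP3 was 0.05 between DLBCL and TZL. The cause of these changes was not tested.

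Leaving out 1 array at a time, with the filter kept, 7 (without Baxter) to 166 (without Pippin) probe sets and 0 to 1 members passed for HSA against hematoma, with 39 without ChadG6, 4749 to 7100 and 3 to 5 members for HSA against OSA, 39 (without Kylie) to 2832 (without OSCA20) and 0 members for OSA against hematoma, 941 (without Frog) to 3071 (without OSCA20) and 2 to 3 members for golden retriever HSA, 9172 to 9709 and 6 members for cultured against primary, and 2929 to 4440 and 1 member for DLBCL against TZL. With the filter redrawn, also chosen after seeing the data, these were 7 to 200, 4791 to 7274, 43 to 2801, 931 to 3040, 9061 to 9868 and 2978 to 4555, and 1 to 3 members for golden retriever HSA, where MMP1 fell below the filter without Chieftain.

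Small differences changed sign without single arrays. For HSA against hematoma, MMP2 ran from -0.27 to 1.28, MMP14 from -0.87 to 0.24, TIMP2 from -0.96 to 0.35 and RECK from -0.02 to 0.13, for HSA against OSA MMP2 from -0.45 to 0.81, for OSA against hematoma MMP2 from -0.65 to 0.96, and for golden retriever HSA MMP13 from -0.27 to 0.54. The signal of MMP3 and MMP9 was under the array median on most cultured arrays, which limits what these arrays can show for them.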
